A study of Mus musculus with 12 samples.

Results

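The inducible antimicrobial defence genes of the gut epithelium were examined as a set of 9 members among the 46078 genes counted, namely Reg3a, Reg3b, Reg3g, Retnlb, Nos2, Saa1, Saa2, Duox2 and Duoxa2. They were chosen by name, with symbols taken from the Ensembl identifiers through GENCODE M21. The rule uses no measured value, but the members were chosen with earlier results of these data known. RNA came from epithelium scraped from the proximal ileum of male C57BL/6 mice that were 28 days old at the start and 56 days old at the end. Each mouse received sesame oil by gavage, with or without TCDD, every 4 days over 28 days, and the groups were vehicle (0 µg/kg) and 3, 10 and 30 µg/kg TCDD with 3 libraries each (called vehicle, TCDD 3, TCDD 10 and TCDD 30 from here on), which the labels call biological replicates. TCDD is a chlorinated dioxin and persistent pollutant that activates the aryl hydrocarbon receptor (AhR), and all groups shared the oil, strain, sex and age. The comparison of each dose with vehicle asked how repeated AhR activation changed these genes. The comparison of clock states, defined below, asked how these genes differed between libraries that differed in the expression of circadian clock genes.

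The small intestinal epithelium keeps bacteria away from its surface with secreted proteins and with reactive molecules. Reg3b and Reg3g encode secreted C-type lectins that bind bacterial cell walls, and Reg3a encodes another lectin of the same family. Nos2 encodes the inducible nitric oxide synthase. Duox2 encodes a dual oxidase that releases hydrogen peroxide at the cell surface, and Duoxa2 encodes the maturation factor that Duox2 needs to leave the endoplasmic reticulum. Saa1 and Saa2 encode serum amyloid A proteins, which epithelium makes in response to bacterial contact and the liver makes in the acute phase. Retnlb encodes a resistin-like protein secreted by goblet cells, mainly in the large intestine. Expression of these genes is induced by microbes, in large part through interleukin-22 and STAT3, through interleukin-17 or through Toll-like receptors and NF-kappaB, and several vary with feeding and the time of day. The AhR is known to sustain the innate lymphoid cells that supply interleukin-22.

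The members lie on 5 chromosomes of the mouse genome (build GRCm38). On chromosome 6, Reg3b (78370657 to 78373466, plus strand) and Reg3a (78380709 to 78383827, plus strand) start 10052 bp apart, and Reg3g (78466269 to 78468872, minus strand) ends 82442 bp beyond the end of Reg3a. Duox2 (chromosome 2, 122279247 to 122298449, minus strand) and Duoxa2 (122298900 to 122302885, plus strand) are transcribed away from each other from starts 451 bp apart. Saa1 (chromosome 7, 46740497 to 46742980, minus strand) and Saa2 (46751790 to 46754313, plus strand) are also arranged head to head, with starts 8810 bp apart. Nos2 lies on chromosome 11 (78920787 to 78960254, plus strand) and Retnlb on chromosome 16 (48816856 to 48818892, plus strand). Of the 9 members, only Duoxa2 overlaps an annotated gene, the antisense Duoxa1, and the strand setting of the counting is not given in the sources used here, so Duoxa2 and Duoxa1 reads may not be fully separable.

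RefSeq promoter windows (GRCm38.p6) were at hand for 7 of the 9 members, all but Retnlb and Nos2, and the bases before the start are printed for 5 of them. Duoxa2 is shown because its window lies wholly in the gap between the Duox2 and Duoxa2 starts, and both genes moved with the clock state (chr2:122298650-122298899, plus strand). Saa1 (chr7:46743024-46743230, minus strand) and Saa2 (chr7:46751583-46751789, plus strand) are shown because they are near copies of which Saa2 had at most 3 counts in a library, both cut to the same 207 bases, without those nearest to the start. Reg3a (chr6:78380459-78380708, plus strand) and Reg3g (chr6:78468875-78469124, minus strand) are shown because the former moved with the clock state and the latter, far more abundant, did not pass that test. Capitals mark matches, on either strand, to the motifs searched (spelled out after the sequences).
Duoxa2: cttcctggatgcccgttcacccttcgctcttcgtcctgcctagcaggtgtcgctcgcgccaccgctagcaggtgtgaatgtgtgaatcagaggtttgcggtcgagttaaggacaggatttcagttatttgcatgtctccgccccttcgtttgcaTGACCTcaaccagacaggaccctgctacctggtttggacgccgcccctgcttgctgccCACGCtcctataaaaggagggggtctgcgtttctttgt
Saa1: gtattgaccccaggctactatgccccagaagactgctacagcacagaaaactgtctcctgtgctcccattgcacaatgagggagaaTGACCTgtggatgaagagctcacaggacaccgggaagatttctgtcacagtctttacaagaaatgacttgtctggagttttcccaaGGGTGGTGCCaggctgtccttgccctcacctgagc
Saa2: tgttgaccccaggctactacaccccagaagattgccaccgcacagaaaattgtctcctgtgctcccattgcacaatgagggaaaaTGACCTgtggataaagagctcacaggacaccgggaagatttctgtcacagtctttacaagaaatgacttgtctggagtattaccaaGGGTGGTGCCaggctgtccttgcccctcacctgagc
Reg3a: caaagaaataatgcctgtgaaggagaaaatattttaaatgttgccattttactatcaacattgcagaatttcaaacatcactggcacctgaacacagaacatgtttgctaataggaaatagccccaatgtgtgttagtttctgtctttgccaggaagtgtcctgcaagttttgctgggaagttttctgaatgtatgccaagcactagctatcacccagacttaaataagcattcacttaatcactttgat
Reg3g: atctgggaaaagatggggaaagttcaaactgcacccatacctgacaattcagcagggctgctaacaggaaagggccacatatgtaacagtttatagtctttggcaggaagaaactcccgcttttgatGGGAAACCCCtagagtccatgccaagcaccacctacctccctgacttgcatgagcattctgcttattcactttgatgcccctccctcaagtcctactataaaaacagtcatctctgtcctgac

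The stretches printed for Saa1 and Saa2 were 93.8% identical over 208 aligned columns, against 50.6% over 267 columns for Reg3a and Reg3g. In the 250 bases before the start, on both strands, GCGTG (the core of the dioxin response element) was found in Duoxa2 alone, at position -38 from the start, and in 28.2% of the 32851 RefSeq windows. AGGTCA, a binding element of ROR and REV-ERB nuclear receptors of the clock, was found in Duoxa2 at -96, in Saa1 at -164 and in Saa2 at -165, and in 14% of all windows. TTCNNNGAA, a STAT site, was found in Reg3b at -129 and in 7.02% of all windows. Positions count from the RefSeq start, which for Reg3b and Duox2 lies inside the gene span given above. Most of the 250 bases searched for these genes, and the Reg3b match, thus fall within the annotated gene. GGGNNNNNCC, a loose NF-kappaB site, was found in Reg3g at -123, Saa1 at -78 and Saa2 at -79, and in 45.8% of all windows. The E-box CACGTG and the D-box TTANGTAA matched none of the 7 windows, against 6.02% and 2.06% of all windows. A match describes letters only, and no match overlapped another in the printed stretches. Near-copies also matter for read assignment: 31.5% of the 50-base stretches of Saa1 transcripts recur in Saa2 or Saa3 and 6.05% of those of Duox2 recur in Duox1, whereas Reg3a, Reg3b, Reg3g, Retnlb, Nos2 and Duoxa2 shared none with another gene.

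Libraries held between 11695887 and 22180274 reads counted on genes, and 15823 genes, 8 of the 9 members among them, passed the filter on low counts. Levels are given as CPM, a gene's reads relative to the total counted on genes in its library, after TMM scaling of that total. A clock score computed from genes other than the members split the libraries into 6 with high Dbp (28.9 to 120.4 CPM) and 6 with low Dbp (0.979 to 3.38 CPM), where Dbp is an output gene of the clock. The Dbp-high libraries were vehicle replicates 2 and 3, replicate 1 of TCDD 3 and of TCDD 10, and TCDD 30 replicates 1 and 2. Replicate 3 in TCDD 30 was Dbp-low but had the score nearest to 0. This split is a property of the libraries, not of the labels. The paper describes tissue harvest early in the light period, and the reason for the split was not tested. Cyp1a1, a cytochrome P450 and classical AhR target, was at 18.9 to 27.5 CPM with vehicle, 872 to 1332 CPM in TCDD 10 and 2605 to 3247 CPM in TCDD 30. In TCDD 3 it was at 141, 68.7 and 22.2 CPM, so replicate 3 lay inside the vehicle range. Of 5 AhR targets 0 passed the test described below in TCDD 3 (0.228% of all genes did), against 3 in TCDD 10 (0.613%) and 4 in TCDD 30 (3.97%). The brush border gene Vil1, an epithelial marker, was at 3027 to 4474 CPM in all 12 libraries. Genes of other gut regions differed by dose group: the colonic Car1 had 43.7 to 62.1 CPM in the TCDD 10 libraries and 0 counts in the other 9, and the distal ileal Fabp6 had 22.9 to 38.3 CPM in the TCDD 3 libraries and at most 0.306 CPM elsewhere. Fabp6 was 1 of 4 distal ileal markers, whose sum was 194 to 226 CPM with vehicle, 235 to 269 CPM in TCDD 3, 161 to 217 CPM in TCDD 10 and 225 to 339 CPM in TCDD 30. Slc10a2, another of the 4, had 5.45 to 16.4 CPM in TCDD 3 and at most 2.68 CPM elsewhere. The median log2 change of the 4 against vehicle was 1.37 in TCDD 3, 0.03 in TCDD 10 and 0.17 in TCDD 30. In scrapings, fewer cells of a type and less RNA per cell cannot be told apart.

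Reg3b and Reg3g were by far the most abundant members. Per kilobase of exon, the mean over the 12 libraries was 3642 CPM for Reg3b, 886 for Reg3g, 60 for Nos2, 26.7 for Reg3a, 19.5 for Duox2, 8.45 for Duoxa2, 1.15 for Saa1, 0.387 for Retnlb and 0.0371 for Saa2. The highest library exceeded the lowest 2.28-fold in Reg3g, 2.32-fold in Reg3a and 3.07-fold in Reg3b, but 5.36-fold in Nos2, 6.08-fold in Duox2, 11.4-fold in Saa1 and 11.8-fold in Duoxa2.

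**Figure D1:**
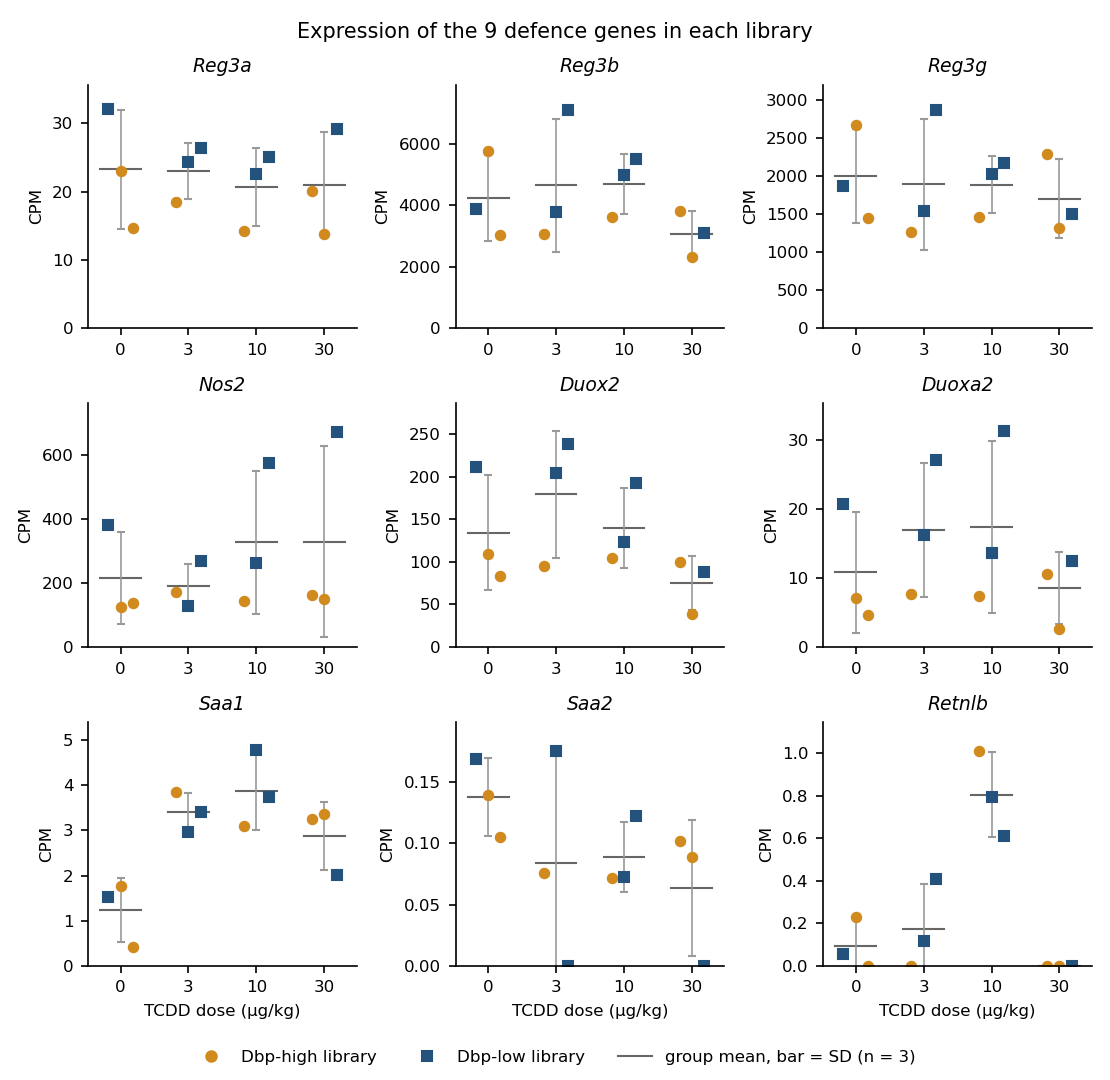
Expression of each member in CPM (vertical axes, linear, from 0) by TCDD dose in µg/kg; each point is 1 library, circles Dbp-high and squares Dbp-low, with horizontal lines at group means and bars of 1 SD (n = 3). The Dbp-low squares lie above the circles of the same dose in Reg3a and Duoxa2 at all 4 doses, and the 3 vehicle points of Saa1 lie below all 9 TCDD points.

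None of the members passed the test at any dose, whereas 4 passed it between clock states. These tests differ in power, because a dose comparison set 3 libraries against 3 and the clock comparison 6 against 6. For Nos2, Duox2, Duoxa2 and Reg3a the SE of the log2 change was 0.30 to 0.68 against vehicle and 0.12 to 0.30 between states. The calls thus do not show that the members respond to the clock state and not to dose. A gene passed when edgeR's quasi-likelihood test gave a Benjamini-Hochberg adjusted p under 0.05 and a change of at least 1.5-fold. Against vehicle, 0 of the 8 tested members passed in TCDD 3 (0.228% of all genes tested did), 0 in TCDD 10 (0.613%) and 0 in TCDD 30 (3.97%), with 1, 2 and 1 members at an unadjusted p under 0.05 and 1 member, Saa1, called by DESeq2 at each dose. For a slope over the dose rank 0 members passed (3.29% of genes), 0 at an unadjusted p under 0.05 and 0 by DESeq2. With the clock state in the model, edgeR again called 0 members in TCDD 3 (0.316% of genes), TCDD 10 (0.91%) and TCDD 30 (5.49%), with 1, 3 and 2 at an unadjusted p under 0.05 and Saa1 called by DESeq2 each time. Any difference among the 4 groups, tested without a fold limit, was called for 1 member, Retnlb, and for 6.78% of genes. Retnlb passed the filter on low counts only through the TCDD 10 libraries, and 9 of 12 fits without 1 library lost its call. Between clock states, with dose in the model, Nos2, Duox2, Duoxa2 and Reg3a passed, and 3.36% of all genes did. All 4 were higher in the Dbp-low libraries, as were 1.4% of genes. The median log2 change between states over the 8 tested members was 0.49, against 0.01 over all genes tested. Because the members were chosen with earlier results of these data known, this comparison with all genes is a description only.

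**Figure D2:**
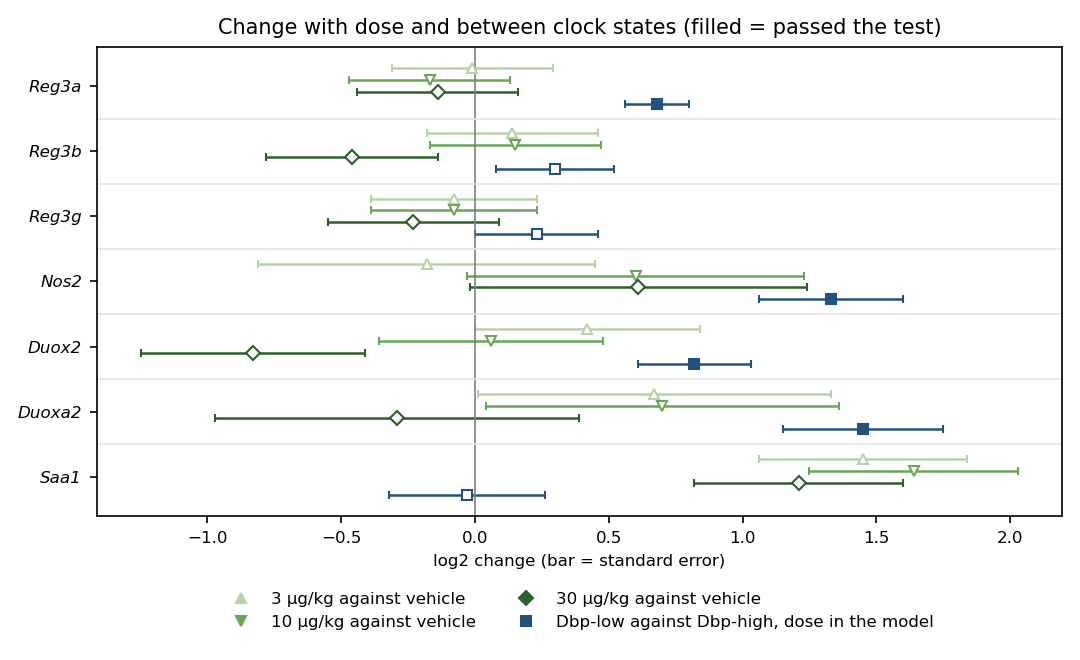
Log2 change (horizontal axis) of the 7 members with at least 8 counts in every library, against vehicle in TCDD 3, TCDD 10 and TCDD 30 (triangles and diamonds) and in Dbp-low against Dbp-high libraries with dose in the model (squares); bars are standard errors and filled symbols passed the test. Filled symbols appear only for the clock state of Nos2, Duox2, Duoxa2 and Reg3a, and all dose changes of Saa1 lie between 1.21 and 1.64.

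The oxidant-producing genes Nos2, Duox2 and Duoxa2 were higher in Dbp-low libraries. Duoxa2 ranged from 2.66 to 10.6 CPM (median 7.2) in the 6 Dbp-high libraries and from 12.5 to 31.3 CPM (median 18.5) in the 6 Dbp-low libraries. The ranges did not overlap, and within each of the 4 dose groups every Dbp-low library lay above every Dbp-high library. The difference was 1.45 on the log2 scale (SE 0.30, edgeR adjusted p = 0.00547), or 2.74-fold. By dose, the mean of the Dbp-low libraries was 3.56 times that of the Dbp-high libraries with vehicle, 2.81 times in TCDD 3, 3.06 times in TCDD 10 and 1.89 times in TCDD 30. The summed level of 8 enterocyte markers was 37469 to 47073 CPM in Dbp-high and 30191 to 34839 CPM in Dbp-low libraries, without overlap, and thus moved opposite to Nos2, Duox2, Duoxa2 and Reg3a. Its part in those results was not tested.

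Nos2 was nearly constant among Dbp-high libraries and spread widely among Dbp-low libraries. The Dbp-high libraries held 125 to 173 CPM (mean 149 ± 17.2, SD, n = 6), and the Dbp-low libraries 128 to 672 CPM (mean 381 ± 206, SD, n = 6). Only TCDD 3 replicate 2, with 128 CPM, was a Dbp-low library inside the Dbp-high range. The change was 1.33 on the log2 scale (SE 0.27, edgeR adjusted p = 0.0044), or 2.52-fold. In the Dbp-low libraries Nos2 stood at 381 CPM with vehicle, 128 and 267 CPM in TCDD 3, 262 and 574 CPM in TCDD 10 and 672 CPM in TCDD 30, while the Dbp-high means moved only between 132 CPM with vehicle and 173 CPM in the TCDD 3 library. With 1 or 2 libraries in each cell of dose and state these values are a description. An interaction of dose rank with clock state, added after the values were seen, gave a log2 change of 0.91 for Nos2 (SE 0.67, edgeR adjusted p = 1), and it was called by edgeR for 0 of the 8 members (0 at an unadjusted p under 0.05, 0 by DESeq2) and for 0% of all genes, with 609 genes at an unadjusted p under 0.05 and 2 called by DESeq2.

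Duox2, the partner of Duoxa2, was also higher in Dbp-low libraries. It had 211, 109 and 83.3 CPM in vehicle replicates 1 to 3, 95.7, 204 and 239 CPM in TCDD 3, 104, 123 and 193 CPM in TCDD 10, and 99.4, 39.3 and 87.6 CPM in TCDD 30. The Dbp-low libraries were above the Dbp-high libraries in vehicle, TCDD 3 and TCDD 10, and in TCDD 30 the Dbp-low library lay between the others. The change between states was 0.82 on the log2 scale (SE 0.21, edgeR adjusted p = 0.0206), or 1.77-fold. This call was lost without vehicle replicate 1 (0.71, edgeR adjusted p = 0.131) and without TCDD 3 replicate 1 (0.70, edgeR adjusted p = 0.0874). In TCDD 30 the log2 change of Duox2 from vehicle was -0.83 (SE 0.42, edgeR adjusted p = 0.28), and -0.72 with the clock state in the model (SE 0.28, edgeR adjusted p = 0.11), values that overlapped vehicle and did not pass the test. That value passed only without TCDD 30 replicate 1 among the leave-one-out fits (-1.25, edgeR adjusted p = 0.00234). It also passed without the filter on low counts (-0.72, edgeR adjusted p = 4.28e-12). There the change of Duox2 was the same and its SE was smaller, 0.1 instead of 0.28. Its interaction of dose rank with clock state was -0.90 (SE 0.58, edgeR adjusted p = 1).

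**Figure D3:**
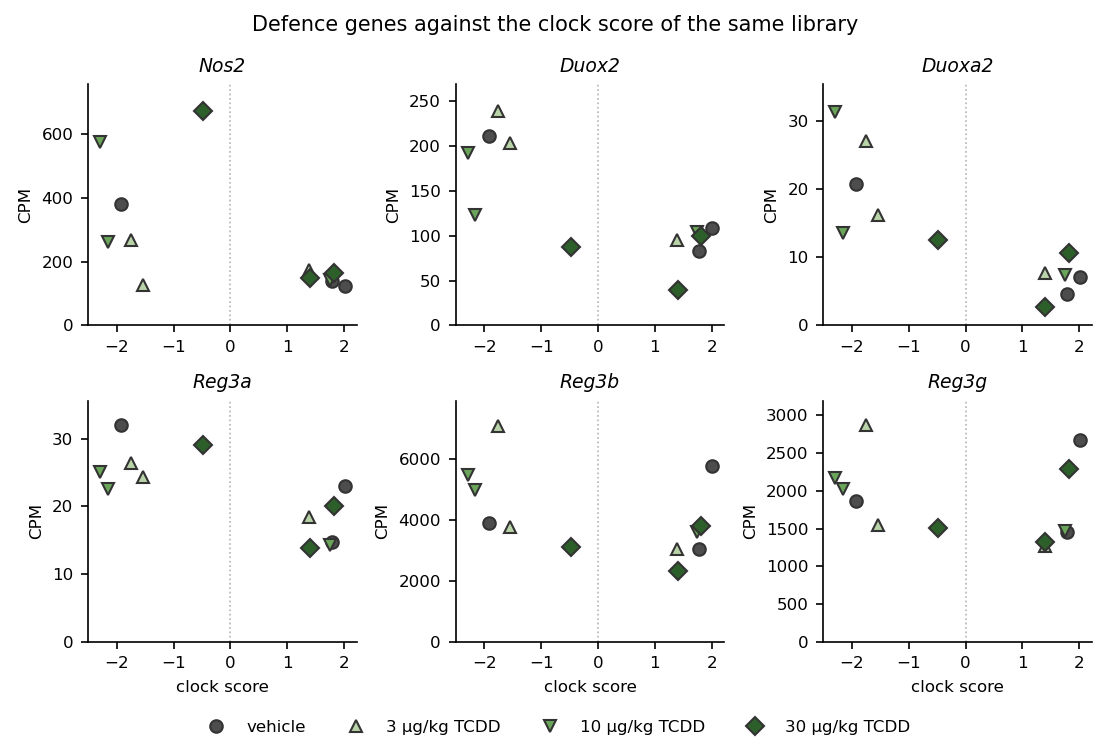
Level of 6 members in CPM (vertical axes, linear, from 0) against the clock score of the same library (horizontal axes, no unit, higher with Dbp and lower with Arntl), 12 libraries marked by dose. Dbp-low libraries lie left of 0, where every Duoxa2 point is above those on the right (12.5 CPM or more against at most 10.6 CPM), and TCDD 30 replicate 3, the library nearest to 0 at -0.48, has the highest Nos2 (672 CPM).

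Within a library, Duox2 and its maturation factor kept closer proportions than Duox2 and Nos2 did. The ratio of Duox2 to Duoxa2 in CPM lay between 6.16 and 18, a 2.92-fold span, and it was 9.41 to 18 in Dbp-high and 6.16 to 12.6 in Dbp-low libraries. The ratio of Nos2 to Duox2 lay between 0.626 and 7.67, a 12.3-fold span, with group means of 1.54 ± 0.348 with vehicle, 1.19 ± 0.595 in TCDD 3, 2.16 ± 0.795 in TCDD 10 and 4.37 ± 3.06 in TCDD 30 (SD, n = 3 each). An exact permutation test over the 4 groups gave p = 0.0786 for Nos2 to Duox2 (0.157 adjusted over the 4 ratios examined) and p = 0.464 for Duox2 to Duoxa2 (0.464 adjusted) and neither passed. The ratio of Reg3b to Reg3a, 106 to 269, gave p = 0.391 in the same exact test (0.464 adjusted). Against vehicle, the log2 changes of Nos2 were -0.18 (SE 0.63), 0.60 (SE 0.63) and 0.61 (SE 0.63) in TCDD 3, TCDD 10 and TCDD 30, and those of Duoxa2 were 0.67 (SE 0.66), 0.70 (SE 0.66) and -0.29 (SE 0.68). The log2 change of Duox2 was 0.42 (SE 0.42) in TCDD 3 and 0.06 (SE 0.42) in TCDD 10, and the edgeR adjusted p of these dose values was at least 0.628.

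Of the 3 lectins, the least abundant moved with the clock state. Reg3a had 32.1, 23 and 14.7 CPM in vehicle replicates 1 to 3, 18.5, 24.3 and 26.4 CPM in TCDD 3, 14.3, 22.6 and 25.1 CPM in TCDD 10, and 20.1, 13.8 and 29.1 CPM in TCDD 30. Dbp-low libraries (22.6 to 32.1 CPM) lay above Dbp-high libraries (13.8 to 23 CPM) at all 4 doses, and over all libraries the ranges overlapped by 1 library on each side. The difference was 0.68 on the log2 scale (SE 0.12, edgeR adjusted p = 0.00177), or 1.6-fold. Its log2 changes against vehicle were -0.01, -0.17 and -0.14 in TCDD 3, TCDD 10 and TCDD 30 (SE 0.30 each, edgeR adjusted p of at least 0.824).

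The abundant lectins Reg3b and Reg3g varied together from library to library and did not pass a test for dose or clock state. Reg3b had 3885, 5761 and 3035 CPM in vehicle replicates 1 to 3, 3054, 3777 and 7099 CPM in TCDD 3, 3603, 4976 and 5494 CPM in TCDD 10, and 3811, 2314 and 3095 CPM in TCDD 30. Reg3g had 1871, 2675 and 1456 CPM with vehicle, 1263, 1549.7 and 2879.8 CPM in TCDD 3, 1466, 2025 and 2176 CPM in TCDD 10, and 2295, 1316 and 1503 CPM in TCDD 30. The library that was highest in a group for Reg3b was also highest for Reg3g in all 4 groups. Against vehicle the log2 changes of Reg3b were 0.14, 0.15 and -0.46 (SE 0.32 each) and those of Reg3g -0.08, -0.08 and -0.23 (SE 0.31, 0.31 and 0.32), with edgeR adjusted p of at least 0.435. Between clock states the log2 change was 0.30 for Reg3b (SE 0.22, edgeR adjusted p = 0.462) and 0.23 for Reg3g (SE 0.23, edgeR adjusted p = 0.605). Dbp-low libraries exceeded Dbp-high libraries in TCDD 3 and TCDD 10 only, and not with vehicle or in TCDD 30. Whether the state effect of Reg3a differs from that of Reg3b or Reg3g was not tested.

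The ratio of Reg3b to Reg3g within a library, examined after its values were seen, differed between dose groups with little spread inside them. It was 2.08, 2.15 and 2.08 in vehicle replicates 1 to 3, 2.42, 2.44 and 2.46 in TCDD 3, 2.46, 2.46 and 2.52 in TCDD 10, and 1.66, 1.76 and 2.06 in TCDD 30. Every library in TCDD 3 and TCDD 10 lay above all vehicle libraries, and every library in TCDD 30 below them. The means were 2.1 ± 0.0404, 2.44 ± 0.02, 2.48 ± 0.0346 and 1.83 ± 0.208 (SD, n = 3 each). An exact permutation test over the 12 libraries for a difference among the 4 groups gave p = 0.000195 (0.000779 adjusted over the 4 ratios examined), whereas each dose against vehicle reached p = 0.1 (exact, two-sided), the smallest p that 3 against 3 libraries allow. Neither value accounts for the choice of this pair after its values were seen. How many other gene pairs separate the 4 groups in this way was not counted. The log2 difference from vehicle was 0.21 in TCDD 3, 0.24 in TCDD 10 and -0.21 in TCDD 30. Scaling of library size cancels in this ratio. The group-specific Car1 and Fabp6 counts described above also separate the TCDD 3 and TCDD 10 libraries from the others, and their part in the ratio was not tested. In TCDD 30 against vehicle, the median log2 change was 0.17 over protein-coding genes whose exons span 1000 to 2000 nt, like Reg3b (1142 nt), and 0.03 over those spanning 2000 to 4000 nt, like Reg3g (2114 nt), and the part of exon length in the ratio was not tested.

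**Figure D4:**
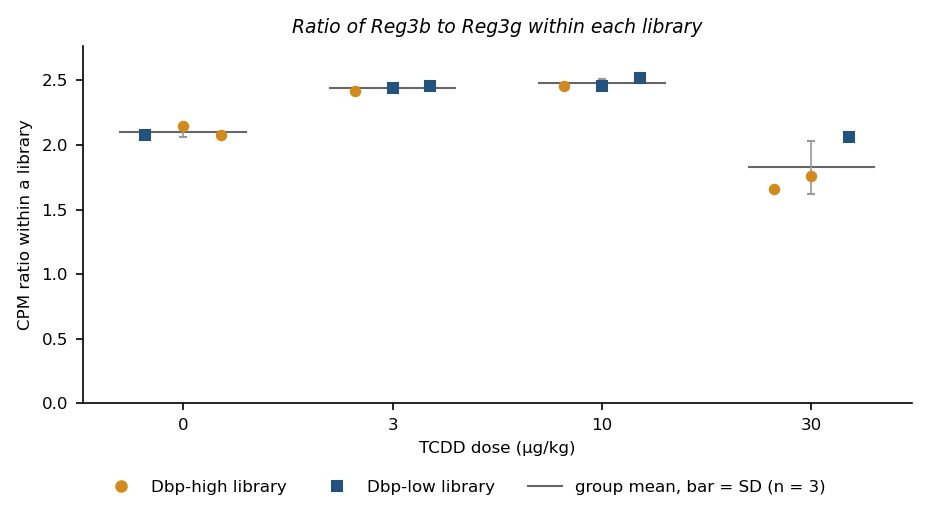
Ratio of Reg3b to Reg3g in CPM within each library (vertical axis, linear, from 0) by TCDD dose in µg/kg; points are libraries, lines group means and bars 1 SD (n = 3). The vehicle libraries lie at 2.08 to 2.15, those in TCDD 3 and TCDD 10 at 2.42 to 2.52 and those in TCDD 30 at 1.66 to 2.06.

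Saa1 was low in every library and lowest in the vehicle group. It had 1.52, 1.76 and 0.42 CPM in vehicle replicates 1 to 3, 3.84, 2.97 and 3.4 CPM in TCDD 3, 3.09, 4.78 and 3.73 CPM in TCDD 10, and 3.26, 3.37 and 2.02 CPM in TCDD 30, from 8 to 66 counts a library. No vehicle library reached the lowest TCDD library at any dose, but how many of all genes separate in this way was not counted. The log2 change was 1.45 in TCDD 3 (SE 0.39, 2.73-fold, edgeR adjusted p = 0.221), 1.64 in TCDD 10 (SE 0.39, 3.11-fold, edgeR adjusted p = 0.0884) and 1.21 in TCDD 30 (SE 0.39, 2.31-fold, edgeR adjusted p = 0.096). The change failed the correction in edgeR, while DESeq2 called it at each dose (adjusted p = 0.0324, 0.00342 and 0.0296). The 3 comparisons share the vehicle libraries, of which replicate 3 had 8 counts, and without it the changes were 1.03, 1.24 and 0.80. A trend with dose did not pass the test (log2 change of 1.04 from the lowest to the highest dose rank, SE 0.52, edgeR adjusted p = 0.279), and with the clock state in the model the changes were 1.46, 1.65 and 1.2 (edgeR adjusted p = 0.143, 0.0592 and 0.0642). The change between clock states was -0.03 (SE 0.29, edgeR adjusted p = 0.965).

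Saa2, which shares transcript sequence with Saa1, had 0 to 3 counts in each library, at most 0.175 CPM, and was removed by the filter on low counts. Its 3 vehicle libraries held 8 counts in all and the groups in TCDD 3, TCDD 10 and TCDD 30 4, 4 and 3 counts, so a difference was not detectable at this depth. In CPM the TCDD 30 libraries (0 to 0.102) lay under the vehicle libraries (0.105 to 0.169), a gap that rests on 0 to 2 counts against 2 to 3. Reads aligned to several places were listed apart from the gene counts, so reads common to Saa1 and Saa2 may be missing from both. They made up 36.2 to 38.8% of all reads listed in TCDD 30 and 31.4 to 34.6% in the other groups.

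Retnlb was detected mainly in the TCDD 10 libraries. It had 1, 5 and 0 counts in vehicle replicates 1 to 3, 0, 2 and 7 counts in TCDD 3, 14, 11 and 10 counts in TCDD 10 and 0 counts in all libraries in TCDD 30. In CPM the TCDD 10 libraries had 1.01, 0.797 and 0.612, above all other libraries, the next being 0.41. Over summed counts TCDD 10 had 0.795 CPM, and 3 counts over the TCDD 30 group would be 0.061 CPM. That limit covers counting error alone and not the spread between libraries, and TCDD 10 was not tested against TCDD 30. The log2 change against vehicle was 2.89 in TCDD 10 (SE 0.86, edgeR adjusted p = 0.162). In TCDD 30 it was -3.85 (SE 1.92, edgeR adjusted p = 0.275), with libraries that overlapped vehicle and a size that 0 counts leave undetermined. The test for any difference among the 4 groups gave an edgeR adjusted p of 0.0458, and Retnlb passed the filter on low counts only through the TCDD 10 libraries, so a difference was built into its being tested. That call was kept only without vehicle replicate 2 or without TCDD 3 replicate 1 or 3. It was lost without any of the other 9 libraries, at an edgeR adjusted p of 0.0669 and 0.0563 respectively without vehicle replicates 1 and 3, 0.0785 without TCDD 3 replicate 2, and 0.0923 to 0.116 without a library of TCDD 10 or TCDD 30. Of the 5 colonic markers 4 were tested, and 2 rose in TCDD 10 against vehicle (0.613% of all genes passed). The summed level of the 5 colonic markers was 182 to 206 CPM in TCDD 10 and 68 to 132 CPM in the other groups, Car1 was at 0 counts in the other 9 libraries, and the water channel Aqp8 had 4.71 to 5.61 CPM in TCDD 10 and at most 0.82 CPM elsewhere, and their part in the Retnlb values was not tested. The 7 goblet cell markers, by contrast, summed to 12853 to 13490 CPM in TCDD 10 and 10536 to 15664 CPM in the other groups.

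**Figure D5:**
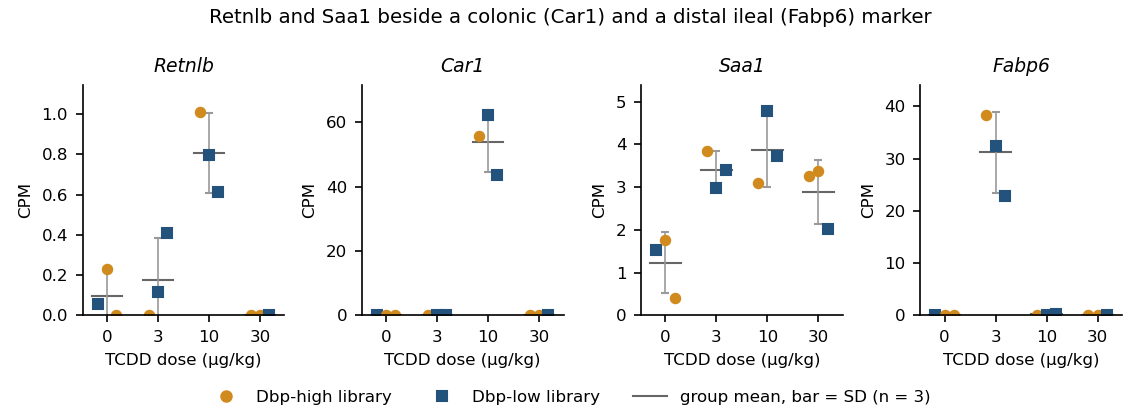
Levels in CPM (vertical axes, linear, from 0) of Retnlb, the colonic marker Car1, Saa1 and the distal ileal marker Fabp6 by TCDD dose in µg/kg; points are libraries, lines group means and bars 1 SD (n = 3). Retnlb is highest in TCDD 10 (0.612 to 1.01 CPM), where alone Car1 is found, whereas Saa1 is above vehicle at all 3 doses.

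Markers of other cell types were compared between clock states and doses. The 8 Paneth cell markers (604 to 2729.9 CPM in Dbp-high, 693 to 2882 CPM in Dbp-low libraries), the 8 macrophage and neutrophil markers (35.3 to 72.1 and 38.2 to 71.7 CPM) and the 8 T and innate lymphoid cell markers (71.3 to 82.3 and 59.5 to 88.9 CPM) overlapped between states. By dose, the macrophage and neutrophil markers summed to 51 to 58.8 CPM with vehicle, 35.3 to 47 CPM in TCDD 3, 38.2 to 52.9 CPM in TCDD 10 and 70.8 to 72.1 CPM in TCDD 30, which overlapped no other group. Of these markers 6 were tested, and 0 passed in TCDD 30 (3.97% of all genes did). For any difference among the 4 groups 3 passed (6.78% of all genes did). Of 7 pancreatic acinar genes 4 were tested. In TCDD 3, 3 were lower (0.228% of all genes passed), and in TCDD 30 3 were lower and 1 was higher (3.97%). The 7 genes summed to 12.4 to 16.7 CPM with vehicle, 3.32 to 11.8 CPM in TCDD 3 and 17.6 to 30.9 CPM in TCDD 30. The part of these cells in the members' values was not tested. The 7 liver markers, relevant to Saa1, summed to at most 3.01 CPM. They were 1.18 to 1.63 CPM with vehicle, 0.938 to 1.81 CPM in TCDD 3, 1.01 to 1.71 CPM in TCDD 10 and 1.69 to 3.01 CPM in TCDD 30, and Alb was at 0 counts in all libraries in TCDD 30. Without the libraries in TCDD 10, a fit added after the values were seen, Nos2, Duox2, Duoxa2 and Reg3a again passed between clock states.

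Genes of the signals that induce the members were counted in lists. Of 20 genes of interleukin-22, interleukin-17 and STAT3 signalling, 13 were tested and 1 passed in TCDD 30, where 3.97% of all genes did. This was Il17ra, the interleukin-17 receptor subunit, which fell by 0.60 on the log2 scale (SE 0.13, edgeR adjusted p = 0.0164), from 25.9 to 32 CPM with vehicle to 18.2 to 22 CPM. The median change of the 13 in TCDD 30 was -0.20, against -0.02 over all genes, and 0 of them passed in TCDD 3 or TCDD 10 or between clock states. Il22 and Il6 had 0 counts in all 12 libraries, where 3 counts, the most that a count of 0 allows for counting error alone, would be 0.135 to 0.257 CPM. Of 21 genes of microbial sensing and NF-kappaB, 20 were tested and 1 rose in TCDD 30, where 3.97% of all genes passed. This was the bacterial lipoprotein receptor Tlr2, by 1.24 (SE 0.34, edgeR adjusted p = 0.0489), from 0.787 to 1.06 CPM with vehicle to 1.51 to 2.91 CPM. For any difference 1 of the 20 passed (6.78% of all genes did), the inflammasome sensor Nlrp6 (edgeR adjusted p = 0.0125). It had 247 to 269.7 CPM with vehicle, 281 to 300.3 CPM in TCDD 3, 322 to 332 CPM in TCDD 10 and 349 to 362 CPM in TCDD 30.

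Some other inducible antimicrobial and chemokine genes rose in TCDD 10 and TCDD 30. Of the 24 listed, 18 were tested. Of these 0 passed in TCDD 3 (0.228% of all genes did), 2 rose in TCDD 10 (0.613% of all genes passed), 5 rose in TCDD 30 (3.97%) and none fell, and the median log2 change in TCDD 30 was 0.48. Ccl28, a mucosal chemokine with antimicrobial activity, rose from 33.8 to 38.3 CPM with vehicle to 65.5 to 93.4 CPM in TCDD 30, by 1.17 (SE 0.13, edgeR adjusted p = 0.000237). Ang4, an antimicrobial ribonuclease of Paneth cells, rose from 28.2 to 46.3 CPM to 159 to 195 CPM, by 2.33 (SE 0.28, edgeR adjusted p = 0.000362), and the goblet cell lectin Zg16 rose by 0.84 (SE 0.15, edgeR adjusted p = 0.00435). Zg16 had 911 to 1268 CPM with vehicle and 1866 to 2179.8 CPM in TCDD 30, but 647 to 876 CPM in TCDD 3 and 785 to 883 CPM in TCDD 10, below every vehicle library without passing the test. Of the 7 goblet cell markers 3 rose in TCDD 30 (3.97% of all genes passed), with a median log2 change of 0.43, and their part in the change of Zg16 was not tested. The 8 Paneth cell markers summed to 1967 to 2882 CPM in TCDD 30 and 607 to 949 CPM with vehicle, beside the change of Ang4, and their part in it was not tested. In TCDD 30 short genes as a class were higher than with vehicle. The median log2 change was 1.04 over protein-coding genes with exons under 600 nt and 0.37 over those of 600 to 1000 nt. Reads on no annotated gene made up 25 to 25.4% of reads listed in TCDD 30 and 28 to 30.1% elsewhere. The part of both in the TCDD 30 rises given here and below was not tested.

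Between clock states 4 of these 18 genes passed (3.36% of all genes did), all higher in Dbp-low libraries like the 4 members. They included the small proline-rich proteins Sprr2a1 (1.91, SE 0.19, edgeR adjusted p = 1.47e-05), Sprr2a2 (3.42, SE 0.33, edgeR adjusted p = 1.32e-05) and Sprr2a3 (1.68, SE 0.20, edgeR adjusted p = 7.4e-05), of which a Sprr2a protein is known to kill bacteria. Sprr2a2 had 0 to 0.679 CPM in Dbp-high and 1.42 to 5.69 CPM in Dbp-low libraries. The Sprr2a genes are near copies of each other, so their division of reads is uncertain. Of 13 relatives of the members 6 were tested and 1 rose in TCDD 30, where 3.97% of all genes passed. This was Reg4, another lectin of the Reg family, by 0.87 (SE 0.20, edgeR adjusted p = 0.0243). Of 14 genes that supply or use nitric oxide and hydrogen peroxide 12 were tested and 1 rose in TCDD 30. It was Cyba, the membrane subunit shared by NADPH oxidases, by 1.09 (SE 0.14, edgeR adjusted p = 0.00047), from 23.5 to 31.6 CPM to 56.8 to 66.6 CPM. No gene of these last lists passed between clock states.

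The patterns most like those of 2 members were ranked over the 12 libraries, as a description, among 13789 tested genes with a mean of at least 1 CPM. For Reg3g, Reg3b ranked highest (Pearson r = 0.901 of log2 CPM), followed by Fopnl (r = 0.857), Inip (r = 0.837) and Gmds (r = 0.835), while Reg3a ranked 596 and Nos2 4457. For Duox2 the nearest genes were Mapre1 (r = 0.961), Eif2ak2 (r = 0.939) and Zdhhc3 (r = 0.936), with its maturation factor Duoxa2 at rank 22 (r = 0.912) and Nos2 at rank 3918 (r = 0.327). These libraries share their clock states and dose groups, so the values describe joint variation among these 12 libraries.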

How the data were processed

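RNA-seq read counts per Ensembl gene were deposited by the authors as raw whole-number counts, 1 file per library, with reads that name no gene (60.3 to 64.6% of reads listed) in rows of their own, which were left out. The submitters' processing notes name FastQC 0.11.3, Trimmomatic 0.33, TopHat2 2.1.0, SAMtools 1.2.0, HTSeq 0.6.1, DESeq and build GRCm38. The annotation release and strand setting are not given in the sources used here. Symbols came from GENCODE M21, which matched 45143 of 46078 genes.

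Counts were fitted with edgeR 4.0.16 (R 4.3.3, limma 3.58.1) with TMM scaling, filterByExpr, the quasi-likelihood test and Benjamini-Hochberg adjustment over 15823 genes, called at an adjusted p under 0.05 and at least 1.5-fold. The 4 groups were fitted together, with and without the clock state. The alternatives were DESeq2 1.42.0, median-of-ratios scaling, no filter, an offset for exon length, the index sequence as a covariate, the compared groups alone, a continuous clock score and each library left out. The interaction of dose rank with clock state, the fit without TCDD 10 and the Reg3b to Reg3g ratio were added after the values were seen. Ratios were compared by exact permutation over libraries. The scripts were tested on simulated data. The members and gene lists were chosen with earlier results of these data known. The genes named outside the members were those of each list that passed a test (up to 6 a list by the smallest adjusted p, of which the text gives the leading ones), Il22 and Il6, named after their counts were seen, and the 3 genes most like Reg3g and Duox2. Libraries held 11695887 to 22180274 counts, so that 3 counts equal 0.135 to 0.257 CPM. The edgeR and DESeq2 p-values weigh a difference against the spread between these libraries.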

Additional observations from a re-analysis of the deposited data

How the results depend on the processing

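The 4 calls between clock states kept their direction in the alternatives run for them, and only that of Duox2 lost its call, in 2 of 12 fits that left out 1 library. The index covariate and the compared groups alone were not run for the clock state. No member moved to the other side of the threshold under median-of-ratios scaling. DESeq2 called 1 member, Saa1, against vehicle in TCDD 3, TCDD 10 and TCDD 30, with and without the clock state, and 2 members for any difference. Without the filter on low counts the members called were 1 in TCDD 10 (Saa1), 2 for any difference (Retnlb and Saa1) and, with the clock state, 1 in TCDD 3 (Saa1), 2 in TCDD 10 (Retnlb and Saa1) and 2 in TCDD 30 (Saa1 and Duox2). In this TCDD 30 fit the changes of Saa1 and Duox2 were the same as with the filter. Their SE was smaller, 0.3 instead of 0.39 and 0.1 instead of 0.28. With the index sequence as a covariate 0 members were called for any difference. Leaving out 1 library gave 0 to 1 members for any difference and, with the clock state, 0 to 1 in TCDD 10 and 0 to 1 in TCDD 30. The cause was not tested.

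Counts of all genes called moved more. In TCDD 3 they were 36, with 71 without the filter, 18 with the index, 6 with the compared groups alone, 84 by DESeq2 and 19 to 162 with 1 library left out. In TCDD 10 they were 97, with 215 without the filter, 59 with the index, 262 by DESeq2 and 45 to 198 with 1 library left out. For any difference they were 1073, with 636 with the index, 2143 by DESeq2 and 562 to 1745, and for the slope 520 and 297 to 640. With the clock state they were 50 in TCDD 3 (234 without the filter, 79 by DESeq2, 18 to 163 with 1 library left out) and 144 in TCDD 10 (593, 225, and 57 to 299). The interaction had 46 genes without the filter and 2 by DESeq2.

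Dose changes that did not pass also changed sign. Reg3a in TCDD 3 was 0.01 with the length trend removed, and Saa1 between clock states was 0.06 with the continuous score and -0.20 to 0.19 with 1 library left out. With 1 library left out, the log2 changes ranged in TCDD 3 from -0.27 to 0.28 for Reg3a, -0.31 to 0.41 for Reg3b, -0.51 to 0.17 for Reg3g and -0.51 to 0.51 for Nos2. In TCDD 10 they ranged from -0.41 to 0.14 for Reg3a, -0.03 to 0.44 for Reg3b, -0.26 to 0.19 for Reg3g, -0.08 to 1.31 for Nos2, -0.24 to 0.55 for Duox2 and -0.04 to 1.58 for Duoxa2. In TCDD 30 they ranged from -0.44 to 0.17 for Reg3a, -0.50 to 0.04 for Reg3g, -0.46 to 1.32 for Nos2 and -0.65 to 0.59 for Duoxa2. No paired analysis was possible because replicate numbers were given in accession order and mark no shared animal, litter or day.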
